A study of Mus musculus with 4 samples.

Results

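The metallothionein family of mouse epidermis was examined across 4 libraries in which the calcium sensors Stim1 and Stim2 were either deleted in the epithelium or present. Members were the rows of the deposited gene table named Mt1, Mt2, Mt3 and Mt4, which gave 4 of 56493 listed genes. Metallothioneins are small cytosolic proteins rich in cysteine, whose thiol groups bind zinc and copper. They buffer these metals, bind toxic metals such as cadmium and react with oxidants. Mt1 and Mt2 are made in most tissues and are induced by zinc through the metal-sensing transcription factor MTF1, and also by glucocorticoids, inflammation and oxidants. Mt3 is known mainly from brain, and Mt4 from the differentiating cells of stratified squamous epithelia such as epidermis and tongue.

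The knockout group (cKO) held 2 libraries from mice in which Stim1 and Stim2 were deleted by a Cre recombinase under the keratin 14 promoter, which is active in basal keratinocytes and other epithelial cells and leaves both genes intact elsewhere in the skin. The control group held 2 libraries from mice with floxed Stim1 and Stim2 alleles, labelled F/F, and both groups carry the floxed alleles. STIM1 and STIM2 sense the calcium content of the endoplasmic reticulum and, when it falls, activate ORAI channels in the plasma membrane. Epidermis was separated chemically from dorsal skin and 3' ends of its transcripts were sequenced from total RNA. The labels give no age and do not say how many mice each library represents, so p-values measure the spread between these libraries, which may be technical.

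Depth was low. Total counts ran from 118858 in cKO replicate 2 to 322426 in control replicate 2, a 2.71-fold range, with 282190 in cKO replicate 1 and 200293 in control replicate 1. Normalised counts (CPM) are counts scaled to a common library size with TMM factors. A count of 0 allows up to 3 counts, and these were worth 9.58 to 33.7 CPM. Of the targeted genes, counts of Stim1 were 23 and 6 (cKO) and 24 and 62 (control), and those of Stim2 were 0 and 1 (cKO) and 3 and 18 (control). Both genes were lower in each cKO library than in each control library in CPM, as were 19.6% of tested genes. Stim1 did not pass the test (log2 fold change -0.98, edgeR adjusted p 0.671) and Stim2 fell under the count filter. The order of Stim2 was not resolved, since 3 counts in cKO replicate 2 were worth more (33.7 CPM) than Stim2 in control replicate 1. Every basal and spinous keratinocyte marker of the lists had counts in all 4 libraries, as did 8 of 10 granular markers, the exceptions being Tgm3 (0 in cKO replicate 2) and Casp14 (0 in control replicate 1). Skeletal muscle markers summed to 1387 and 939 CPM in control against 44.5 and 89.9 CPM in cKO, with Myh4, Tnnt3 and Pvalb at 0 counts in both cKO libraries.

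The 4 genes lie in 1 cluster on the plus strand of chromosome 8, in the order Mt4, Mt3, Mt2, Mt1, within 43131 bases. Positions are those of the deposited table, and the submitters' processing notes name the build GRCm39. Mt4 (ENSMUSG00000031757) spans 94863825 to 94865659 in 3 exons, Mt3 (ENSMUSG00000031760) spans 94879235 to 94880774, Mt2 (ENSMUSG00000031762) spans 94899292 to 94900196 and Mt1 (ENSMUSG00000031765) spans 94905710 to 94906955. Exons of Mt2 share bases with Gm45774, a long non-coding RNA on the opposite strand that is 100% identical to Mt2 over 212 bases and had 0 counts in all 4 libraries. The sources used here do not say if strand was used in counting, so reads of that overlap cannot be assigned between the 2 genes.

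The coding sequences are shown because they bear on whether reads of one member could be counted for another. They come from GENCODE M21 transcripts, run 5' to 3' from the start to the stop codon, and capitals mark the in-frame TGC and TGT codons, which encode cysteine.
Mt1: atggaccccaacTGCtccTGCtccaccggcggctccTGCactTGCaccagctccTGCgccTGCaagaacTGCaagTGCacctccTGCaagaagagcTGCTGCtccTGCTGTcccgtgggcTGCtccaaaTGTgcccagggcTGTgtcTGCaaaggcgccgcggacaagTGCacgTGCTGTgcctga
Mt2: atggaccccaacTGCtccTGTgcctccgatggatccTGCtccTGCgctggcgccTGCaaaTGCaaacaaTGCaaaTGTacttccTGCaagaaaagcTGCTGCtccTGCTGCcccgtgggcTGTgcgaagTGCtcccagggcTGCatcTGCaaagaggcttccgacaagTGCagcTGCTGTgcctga
Mt4: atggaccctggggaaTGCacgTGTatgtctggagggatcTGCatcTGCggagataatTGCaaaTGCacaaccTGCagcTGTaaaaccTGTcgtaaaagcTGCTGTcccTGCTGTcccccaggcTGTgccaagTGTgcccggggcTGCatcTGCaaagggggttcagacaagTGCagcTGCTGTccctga
Each of the 4 members has 20 cysteine codons, among 61 codons before the stop in Mt1 and Mt2, 62 in Mt4 and 68 in Mt3. Mt4 spells 8 of its cysteines with TGT, against 4 in each of the other members. Mt1 and Mt2 were identical at 148 of 186 coding bases (79.6%), and Mt4 was 65.6% identical to Mt1 and 72.0% identical to Mt2. Among the reference transcripts, no other gene matched Mt1, Mt3 or Mt4 at 95% identity or more across 150 bases or more, and Gm45774 was the only such match of Mt2.

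The stretches before the gene starts are shown because Mt1 and Mt2 kept a steady ratio to each other in these libraries and Mt4 did not follow them. Each holds the 250 bases before the RefSeq gene start on the plus strand of GRCm38.p6, a build other than that of the table, and capitals mark the core of the metal response element bound by MTF1, searched as TGCACNC and TGCGCNC on both strands.
Mt1, chr8:94178839-94179088: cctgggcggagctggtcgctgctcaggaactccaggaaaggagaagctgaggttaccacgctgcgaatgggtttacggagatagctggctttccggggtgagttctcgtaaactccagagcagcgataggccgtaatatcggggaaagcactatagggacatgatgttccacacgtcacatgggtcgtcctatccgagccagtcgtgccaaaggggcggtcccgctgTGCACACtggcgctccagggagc
Mt2, chr8:94172368-94172617: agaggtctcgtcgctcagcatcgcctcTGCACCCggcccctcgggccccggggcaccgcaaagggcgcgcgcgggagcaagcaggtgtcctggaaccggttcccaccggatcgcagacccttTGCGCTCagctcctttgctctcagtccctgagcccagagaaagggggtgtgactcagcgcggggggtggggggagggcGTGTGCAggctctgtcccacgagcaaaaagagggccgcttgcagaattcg
Mt4, chr8:94136954-94137203: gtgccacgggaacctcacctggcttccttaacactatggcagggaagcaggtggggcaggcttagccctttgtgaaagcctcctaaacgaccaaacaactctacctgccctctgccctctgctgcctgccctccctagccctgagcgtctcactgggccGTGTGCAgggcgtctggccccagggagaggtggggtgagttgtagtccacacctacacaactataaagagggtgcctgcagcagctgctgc
The window of Mt2 held 3 matches, that of Mt1 held 1, that of Mt4 held 1 and that of Mt3 held 0. At least 3 matches occurred in 1.26% of 32851 windows of the same length, and at least 1 match in 21.4%. The window of Mt4 also held the letters TATAAA, from 30 to 25 bases before the start, as did 12.4% of all windows. That of Mt2 held TGACNNNGC, the core of the antioxidant response element, as did 10.2%. Bases after each annotated start were not searched, so matches there are not in these counts. The listed exons of Mt1 form 1 block once overlapping exons are merged, which does not show if its transcripts are spliced. It was not checked that the annotated start of Mt1 is where its transcription begins. The counts therefore do not rank the promoters of the members. A match describes letters only, and no binding was measured here.

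Mt1 and Mt2, the inducible pair, were present in every library at like levels in both groups. The counts of Mt1 were 94 and 22 (cKO) and 62 and 69 (control). In normalised counts Mt1 was at 380.1 and 247.3 CPM in cKO and at 330.8 and 220.4 CPM in control. The groups overlapped, since cKO replicate 1 was highest and control replicate 2 lowest while the other libraries lay between them. Mean Mt1 was 314 ± 93.9 CPM (SD, n = 2) for cKO, and for control it was 276 ± 78.1 CPM (SD, n = 2). Its log2 fold change was 0.22 (standard error 0.45, 95% interval -0.75 to 1.19, edgeR quasi-likelihood test, Benjamini-Hochberg adjusted p 0.988). A difference of Mt1 inside that interval was not resolved with 2 libraries a group.

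Mt2 ranked the libraries in the same order as Mt1. Its counts were 35 and 8 (cKO) and 21 and 28 (control), which gave 141.5 and 89.9 CPM in cKO and 112.1 and 89.4 CPM in control. Control replicate 2 and cKO replicate 2 were nearly level, and the groups overlapped. The test gave Mt2 a log2 fold change of 0.26 (standard error 0.52, 95% interval -0.87 to 1.39, edgeR adjusted p 0.988). The counts of both genes were also added up, so that reads counted for the wrong member of the pair could not matter. Shared reads left out of both genes in the counting would be missing from the sum as well. The log2 fold change of the sum was 0.22 with a 95% interval from -0.73 to 1.16 (edgeR adjusted p 0.988). The sign of these changes rested on single libraries: without cKO replicate 1 the values were -0.19 for Mt1, -0.19 for Mt2 and -0.19 for the sum, and without control replicate 2 they were -0.04 for Mt1, 0.11 for Mt2 and -0.01 for the sum.

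The ratio between Mt1 and Mt2 was steady. Mt2 made up 27.1% of the counts of the pair in cKO replicate 1 (95% Wilson interval 20.2% to 35.4%) and 26.7% in cKO replicate 2 (14.2% to 44.4%). In control it made up 25.3% in replicate 1 (17.2% to 35.6%) and 28.9% in replicate 2 (20.8% to 38.6%). The group means of 26.9% ± 0.329 (SD, n = 2) in cKO and 27.1% ± 2.52 (SD, n = 2) in control differed by less than the spread between the control replicates (exact two-sided permutation p 1, where 2 libraries against 2 cannot go below 0.333). This share does not depend on how the libraries are scaled. Wilson intervals here and below cover counting error only.

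Mt4, the member of differentiating stratified epithelium, was lower in both cKO libraries than in both control libraries. Its counts were 16 and 1 (cKO) and 28 and 50 (control). In normalised counts Mt4 was at 64.7 and 11.2 CPM in cKO and at 149.4 and 159.7 CPM in control. The control libraries were close together while cKO replicate 2 rested on a single read, and the groups did not overlap. Of all 4243 tested genes, 19.6% likewise had both cKO libraries below both control libraries. Mean Mt4 was 38.0 ± 37.8 CPM (SD, n = 2) for cKO, which was 24.6% of the control mean of 155 ± 7.25 CPM (SD, n = 2).

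The difference in Mt4 did not pass the test over all genes. Its log2 fold change was -1.76 (standard error 0.64, 95% interval -3.14 to -0.39, edgeR unadjusted p 0.0159, adjusted p 0.406). By DESeq2 the adjusted p was 0.960 and by limma-voom it was 0.570. Of all tested genes, 4.81% had an absolute log2 fold change at least as large. Without cKO replicate 1 the value was -3.75 and passed the threshold (edgeR adjusted p 0.0420), with cKO represented by the library that had 1 count of Mt4, and without cKO replicate 2 it was -1.24 (edgeR adjusted p 0.622). In bulk RNA, fewer cells that express Mt4 and less Mt4 RNA per cell cannot be told apart.

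None of the 3 tested members was called, against 0.848% of the 4243 tested genes (28 higher in cKO, or 0.66%, and 8 lower, or 0.189%, at an edgeR adjusted p under 0.05). Mt4 alone had an unadjusted p under 0.05, against 4.17% of tested genes that did so as lower and 4.22% as higher in cKO, and DESeq2 and limma-voom also called 0 of the 3.

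**Figure D1:**
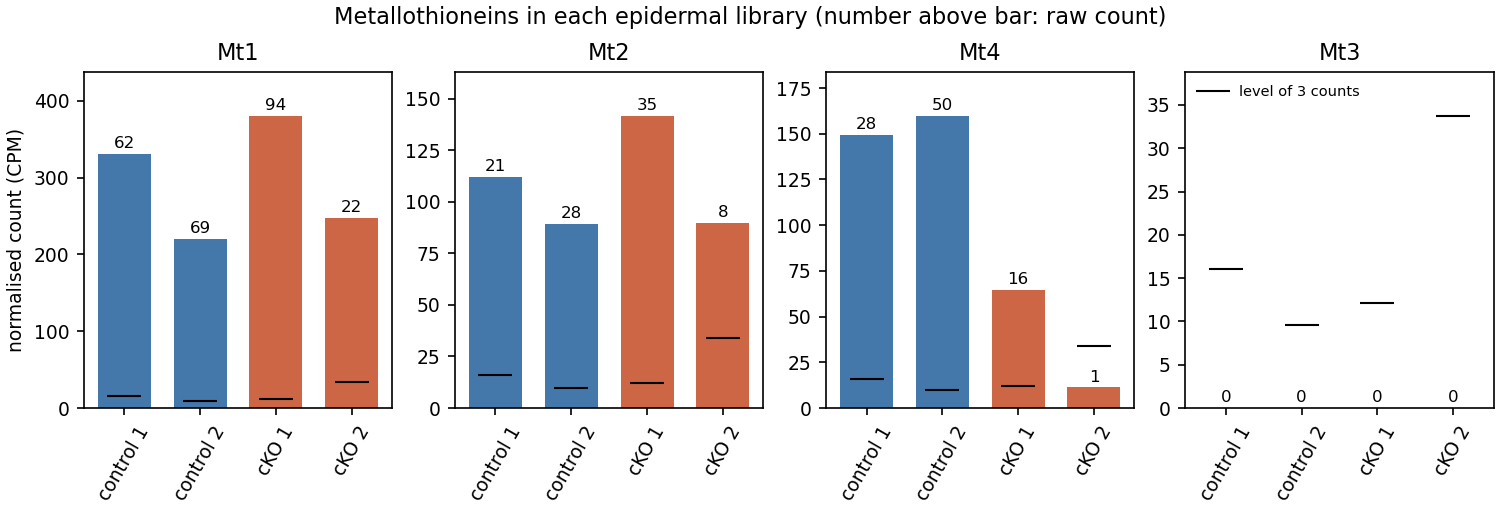
Normalised counts (CPM, linear axis from 0) of Mt1, Mt2, Mt4 and Mt3 in the 4 libraries, each bar 1 library (blue control, orange cKO), with the raw count above it and a black dash at the CPM that 3 counts are worth. Mt1 and Mt2 overlap between groups, Mt4 is at 149.4 and 159.7 CPM in control against 64.7 and 11.2 CPM in cKO, and Mt3 is at 0 in all libraries.

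Within the family, Mt4 took a smaller part of the counts in cKO. It made up 11.03% of the Mt1, Mt2 and Mt4 counts in cKO replicate 1 (95% Wilson interval 6.91% to 17.2%) and 3.23% in cKO replicate 2 (0.572% to 16.2%). In control the share was 25.2% in replicate 1 (18.1% to 34.0%) and 34.0% in replicate 2 (26.8% to 42.0%). The intervals of the cKO libraries lay below those of both control libraries. The group means were 7.13% ± 5.52 (SD, n = 2) and 29.6% ± 6.21 (SD, n = 2), a difference of -22.5 percentage points (exact two-sided permutation p 0.333, the smallest that this design can give). Leaving out each library in turn gave differences from -26.9 to -18.1 points. This share was chosen after the values were seen.

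**Figure D2:**
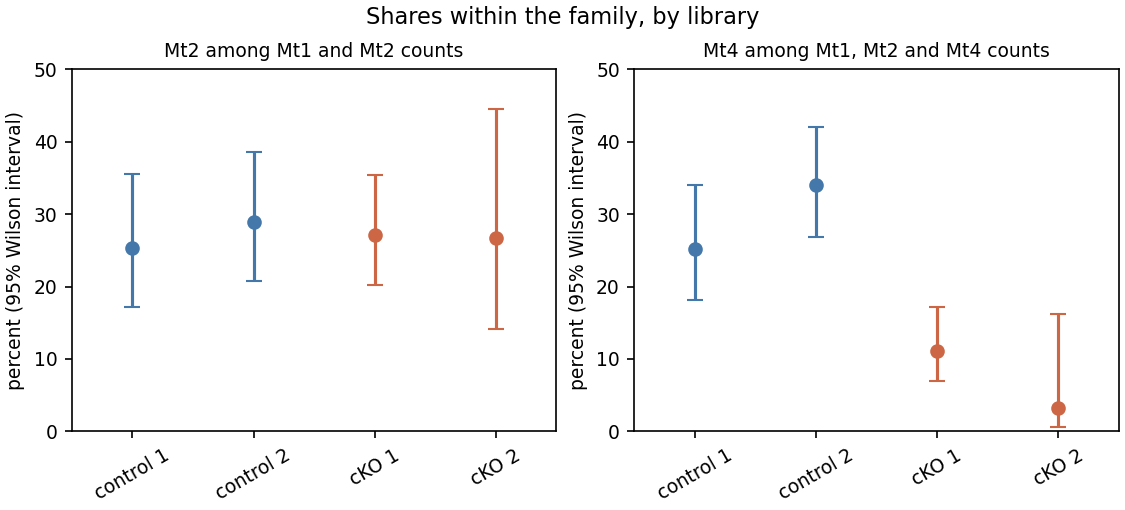
Percent of Mt2 among Mt1 and Mt2 counts (left) and of Mt4 among Mt1, Mt2 and Mt4 counts (right) in each library (blue control, orange cKO), with 95% Wilson intervals for counting error. The left shares lie between 25.3% and 28.9%, and the right shares are 25.2% and 34.0% in control against 11.03% and 3.23% in cKO.

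Mt3 had 0 counts in all 4 libraries. The 3 counts that a 0 allows come to 12.1 CPM (cKO replicate 1), 33.7 CPM (cKO replicate 2), 16.01 CPM (control replicate 1) and 9.58 CPM (control replicate 2). Expression of Mt3 was therefore not detectable at this depth, and no fold is given.

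The family as a whole was a small part of each library. The 4 genes together gave 145 and 31 counts (cKO replicates 1 and 2) and 111 and 147 counts (control replicates 1 and 2). These were 0.0514%, 0.0261%, 0.0554% and 0.0456% of all counts in the same order. The share of cKO replicate 2 was lowest, with a 95% Wilson interval (0.0184% to 0.0370%) below those of the other libraries. In that library 22.6% of all counts fell on 7 pseudogenes of chromosome 1 that copy mitochondrial genes, against 7.73% to 13.3% in the other libraries. The deposited table lists 0 genes of the mitochondrial chromosome, so reads of mitochondrial RNA cannot be told apart from reads of these copies. With those pseudogenes left out of the total, the family was at 0.0337% in cKO replicate 2 and at 0.0494% to 0.0638% in the others, and its interval (0.0237% to 0.0478%) overlapped that of control replicate 2 (0.0420% to 0.0581%). The group means of the share of all counts, 0.0387% ± 0.0179 (SD, n = 2) in cKO and 0.0505% ± 0.00695 (SD, n = 2) in control, differed by less than the spread between the cKO replicates (exact two-sided permutation p 0.667).

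The order of the members by level depended on whether counts were divided by length. Per kilobase of the exon length listed in the table, the mean over the 4 libraries was 242 CPM for Mt4, 236 CPM for Mt1 and 184 CPM for Mt2. On this scale Mt4 was the highest member in both control libraries (375 and 401 CPM per kilobase), while Mt1 was highest in both cKO libraries (305 and 198 CPM per kilobase). Once overlapping exons are merged, those listed for Mt1 form 1 block of 1246 bases with no gap, against 588 bases for Mt2 and 398 for Mt4. With a 3' kit the number of reads does not grow with length, so this division can misorder the members. Without it the means were 295 CPM for Mt1, 108 CPM for Mt2 and 96.3 CPM for Mt4. Mt1 was then above Mt4 in control as well, at 330.8 and 220.4 CPM against 149.4 and 159.7 CPM.

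**Figure D3:**
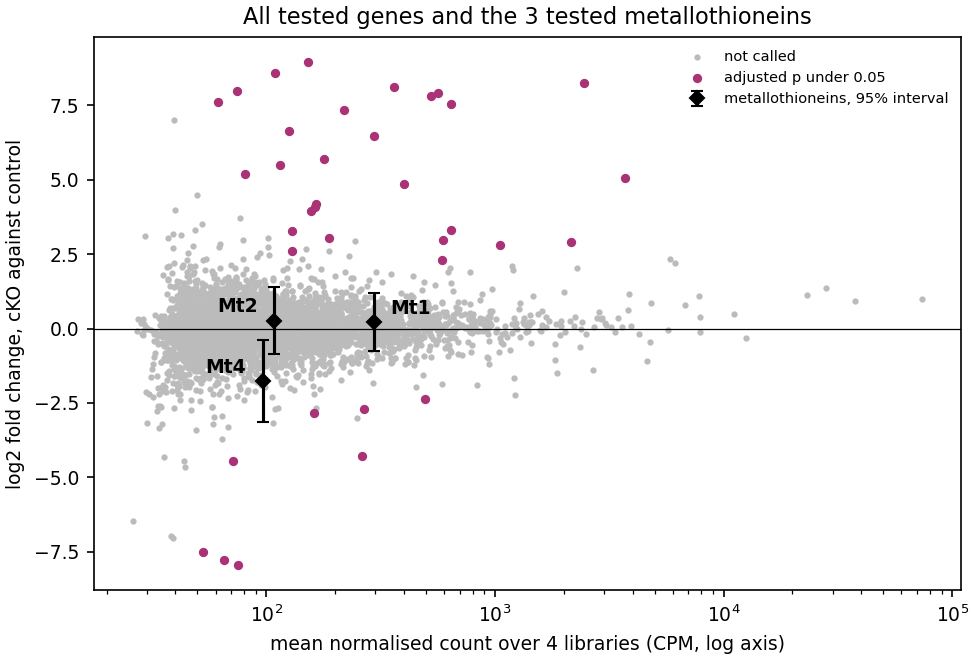
Log2 fold change (cKO against control) of the 4243 tested genes against their mean normalised count (CPM, log axis), with genes at an edgeR adjusted p under 0.05 in purple and the 3 tested metallothioneins as black diamonds with 95% intervals. Mt1 and Mt2 lie near 0 at 0.22 and 0.26, and Mt4 lies at -1.76 among genes that were not called.

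Genes with a like pattern over the 4 libraries were ranked by the root mean square difference of their centred log2 values, log2(CPM + 1), among the 1979 tested genes whose mean reached 100 CPM. Nearest to Mt1 were Gm8137, Ybx1 (a nucleic acid-binding protein), Gm8264, Gm5526 and Vps36 (a subunit of the ESCRT-II sorting complex), at 0.042 to 0.080. Nearest to Mt2 were Spr (sepiapterin reductase), Gm5526, Vps36, Usp16 (a histone deubiquitinase) and Bcl7c, at 0.015 to 0.080. Mt2 ranked 9 from Mt1 and Mt1 ranked 12 from Mt2, with a difference of 0.093 between them. Gm8137, Gm8264 and Gm5526 are listed as processed pseudogenes, so their reads may belong to parent genes. All of the nearest genes named share with Mt1 and Mt2 an order in which cKO replicate 1 was highest and control replicate 1 next. A shared order follows from choosing genes by their values in these same 4 libraries. Mt4 lay 1.48 from Mt1 and 1.46 from Mt2, which ranked 784 and 737 in its order.

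Nearest to Mt4 were Skint5, Tnfaip8, Wwc2, Tmem63a and Rgmb, at 0.26 to 0.34. Counts of Skint5, of a gene family expressed in skin and thymus, were 23 and 2 (cKO) and 34 and 89 (control). Those of Wwc2 were 17 and 2 (cKO) and 43 and 65 (control). Each of the 5 had 2 counts in cKO replicate 2, the library in which Mt4 had 1, and none passed the test (edgeR adjusted p 0.152 to 0.632). With 4 libraries and counts this low, the ranking is a description only.

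Neighbouring genes with at least 10 counts in all included Nudt21 and Ces1d before Mt4 and Herpud1, Nlrc5 and Psme3ip1 after Mt1. Nudt21, a subunit of a pre-mRNA cleavage factor 100166 bases from Mt4, was counted 6 and 0 times (cKO) and 7 and 8 times (control). Herpud1, an endoplasmic reticulum stress gene 206111 bases from Mt1, was counted 13 and 5 times (cKO) and 9 and 2 times (control) and was the only one of these to pass the count filter (edgeR adjusted p 0.896). Nlrc5, an activator of MHC class I genes, was counted 0 and 2 times (cKO) and 8 and 40 times (control). Its difference was not tested because it fell under the filter.

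The genes around metallothionein function and induction showed 0 calls. Of 84 genes in 6 lists, 70 had a count, 30 passed the filter and 0 were called by edgeR, DESeq2 or limma-voom, while 2 had an edgeR unadjusted p under 0.05. The background was 0.848% of genes called. List medians ran from -0.34 to 0.32 on the log2 fold change scale, against 0.0070 over all 4243 tested genes.

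Zinc sensing and transport was sparse. Mtf1, the factor that drives Mt1 and Mt2 in response to zinc, was counted 7 and 0 times (cKO) and 6 and 21 times (control). Slc30a1, the zinc exporter of the cell surface and itself an MTF1 target, was counted 10 and 0 times (cKO) and 3 and 19 times (control). Both genes were at 0 in cKO replicate 2 and neither passed the filter. In CPM, Mtf1 was lower in both cKO libraries, as were 19.6% of tested genes, by little in replicate 1 (28.3 CPM against 32.0 CPM in control replicate 1). This order was not resolved, since the 3 counts that a 0 allows were worth 33.7 CPM in cKO replicate 2. Slc30a1 overlapped between groups. Of the 25 genes in the list, 17 had a count and 4 were tested, with a median log2 fold change of 0.19. Slc39a6, a zinc importer, was counted 22 and 8 times (cKO) and 6 and 12 times (control), or 89.0 and 89.9 CPM against 32.0 and 38.3 CPM. Its groups did not overlap (18.9% of tested genes had both cKO libraries above both control libraries), with a log2 fold change of 1.32 (standard error 0.67, edgeR adjusted p 0.658). Slc30a4, a transporter of zinc into vesicles, was at 0.36, and Slc39a9, another importer, at -0.35, with edgeR adjusted p of 0.988 for both.

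Copper handling genes went both ways without a call, with a median of 0.24 over 5 tested of 11. Cox17, the copper chaperone of cytochrome c oxidase, was counted 18 and 9 times (cKO) and 43 and 52 times (control), with a log2 fold change of -1.22 (standard error 0.50, edgeR unadjusted p 0.0298, adjusted p 0.494). Slc31a1, the high-affinity copper importer, was counted 15 and 12 times (cKO) and 8 and 11 times (control), with a log2 fold change of 1.24 (edgeR adjusted p 0.716). Sod1, the copper and zinc superoxide dismutase, was counted 9 and 0 times (cKO) and 9 and 23 times (control), with a log2 fold change of -1.36 (edgeR adjusted p 0.803). The groups of these 3 genes and of Atox1, a copper chaperone at 0.33 (edgeR adjusted p 0.949), did not overlap in CPM, 2 with cKO above (18.9% of tested genes) and 2 with cKO below (19.6%). Atox1 was named after its values were seen. Without cKO replicate 2 the value of Slc31a1 was 0.66 and that of Sod1 -0.75. Without cKO replicate 1 the remaining cKO library had 0 counts of Sod1, so no fold is given.

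Known inducers of Mt1 and Mt2 were followed through lists of pathway and response genes. Of 12 glucocorticoid-responsive genes 6 were tested, with a median of -0.34, and those with the largest changes were Klf9 at -1.09, Tsc22d3 at -0.76 and Errfi1 at -0.64 (edgeR adjusted p 0.799, 0.804 and 0.928). Of 16 heat shock and oxidant response genes 10 were tested, with a median of 0.0095. Hspb1, a small heat shock protein, was counted 44 and 16 times (cKO) and 31 and 185 times (control), and its log2 fold change of -1.10 became 0.13 without control replicate 2. The mitochondrial chaperonin gene Hspe1 was at 0.80 and the constitutive chaperone gene Hspa8 at 0.53, neither past the threshold (edgeR adjusted p 0.723 and 0.865).

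Of 10 hypoxia response genes 3 were tested. Egln3, an oxygen-sensing prolyl hydroxylase, was counted 30 and 14 times (cKO) and 5 and 3 times (control), or 121.3 and 157.3 CPM against 26.7 and 9.58 CPM. Its log2 fold change of 2.98 (standard error 0.73) was the largest in the 6 lists and missed the threshold (edgeR unadjusted p 0.0012, adjusted p 0.0960), which it passed without cKO replicate 2 (0.0488), without control replicate 1 (0.0463) and with the crossed replicate block (0.0052), while without control replicate 2 the adjusted p was 0.466. Over all alternatives its edgeR, DESeq2 and limma-voom adjusted p ran from 0.0052 to 0.466. Hif1a was at -0.86 and Ndrg1 at 0.32 (edgeR adjusted p 0.838 and 0.955), and Hif1a moved to -1.60 without cKO replicate 1 and to -0.30 without control replicate 1. Of 10 interleukin-6 and STAT3 response genes 2 were tested, Stat3 at 0.27 and Il6ra at -0.07 (edgeR adjusted p 0.978 and 0.997). Stat3 and Il6ra are parts of the pathway itself, and the rest of that list was not tested because it fell under the filter.

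**Figure D4:**
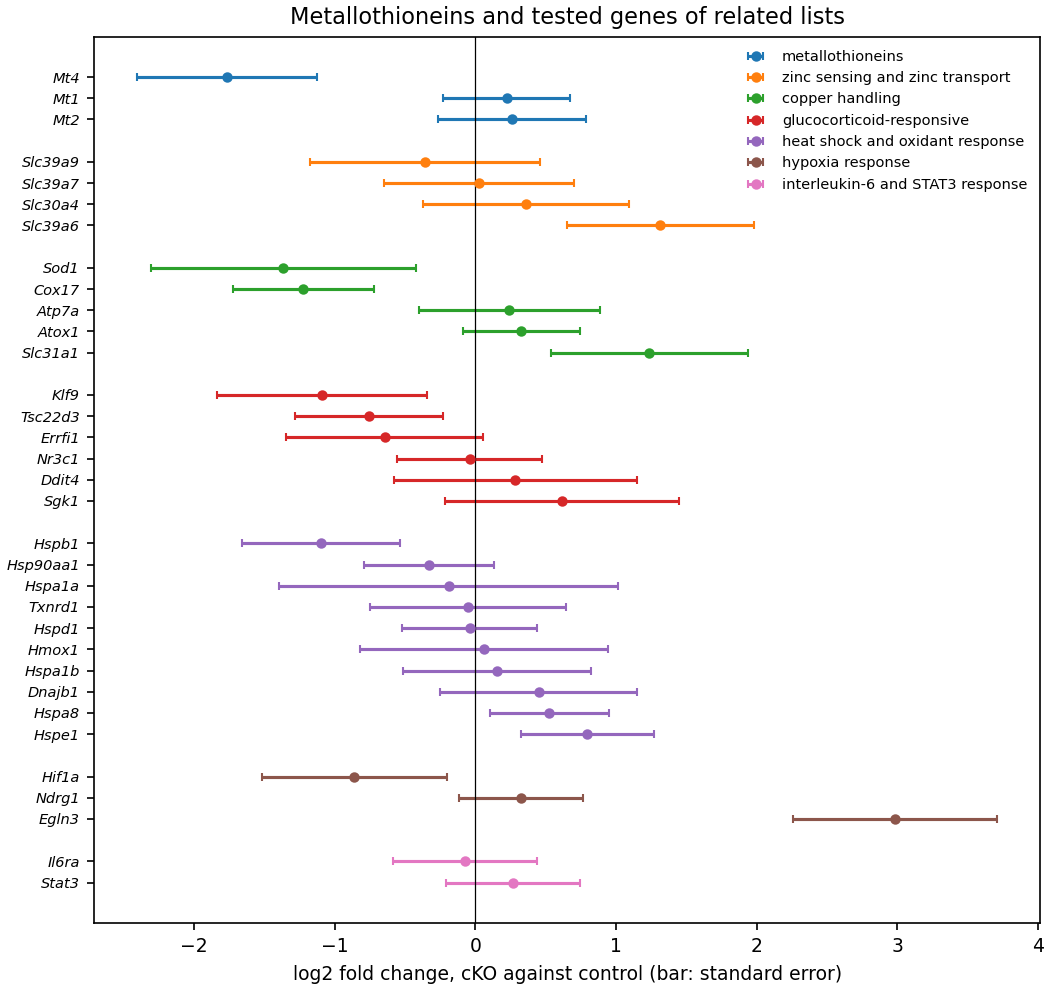
Log2 fold change (cKO against control, bars are standard errors) of the 3 tested metallothioneins and the 30 tested genes of the 6 related lists, coloured by list. Values scatter on both sides of 0, with Egln3 at 2.98 the highest and Mt4 at -1.76 the lowest.

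Among the markers of keratinocyte layers, edgeR called genes only in the granular list. Of 10 granular keratinocyte markers 3 were called higher in cKO (Flg, Hrnr and Casp14) and 0 lower, and their summed level was 22025 and 25691 CPM in cKO against 4979 and 9545 CPM in control. Cst6, not called (edgeR adjusted p 0.147), gave 4072 and 16026 CPM of the cKO sums and 2321 and 2050 CPM of the control sums. The sum of cKO replicate 2 therefore came mostly from this 1 gene. Ivl and Tgm3, also in that list, were lower in both cKO libraries and not called. Ivl, a cornified envelope precursor, was at 614.6 and 528.2 CPM against 1371 and 1268 CPM (edgeR adjusted p 0.359), and Tgm3, a transglutaminase, was counted 12 and 0 times (cKO) and 23 and 50 times (control, edgeR adjusted p 0.368). Of 7 spinous markers 0 were called, with sums of 16125 and 11340 CPM in cKO against 7844 and 16440 CPM in control. Of 7 basal markers 0 were called, with sums of 9041 and 6249 CPM against 6041 and 4928 CPM. Krt14, not called (edgeR adjusted p 0.0507), gave 4355 and 3001 CPM of the cKO sums and 928 and 865 CPM of the control sums. The higher basal sums of cKO therefore rested on this 1 gene. Krt15 went the other way, at 841 and 1551 CPM in cKO against 2855 and 2098 CPM in control. By edgeR at an unadjusted p under 0.05, 8 granular, 2 spinous and 2 basal markers passed, against 4.22% of tested genes as higher and 4.17% as lower. Of the 10 granular markers, 8 were above 0 and 2 below. DESeq2 called 4 granular, 0 spinous and 1 basal marker, and limma-voom called 2, 0 and 1.

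Among other cell types, hair shaft and inner root sheath markers summed to 566 and 405 CPM in cKO against 1649 and 1648 CPM in control, with 0 of 3 tested genes called by edgeR, 1 by DESeq2, 1 by limma-voom and 2 at an edgeR unadjusted p under 0.05. Most of each hair marker sum came from Tchh, at 400 and 292 CPM in cKO against 1371 and 1271 CPM in control. Krt31, Krt33a and Krt35 of that list had 0 counts in every library. Of 6 tested skeletal muscle markers 4 were called lower in cKO by edgeR, 2 by DESeq2 and 0 by limma-voom. Leukocyte markers summed to 1011 and 2956 CPM in cKO against 3453 and 1977 CPM in control, and dermal fibroblast markers to 36.4 and 606.9 CPM against 160.1 and 102.2 CPM. Sebaceous gland and adipocyte markers summed to 635 and 1708 CPM in cKO against 555 and 466 CPM in control, with all 4 tested genes above 0, 2 of them at an edgeR unadjusted p under 0.05 and 0 called by edgeR, DESeq2 or limma-voom. Endothelial markers were at or below 6.39 CPM in every library. The part of these layers and cell types in the Mt4 difference was not tested.

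**Figure D5:**
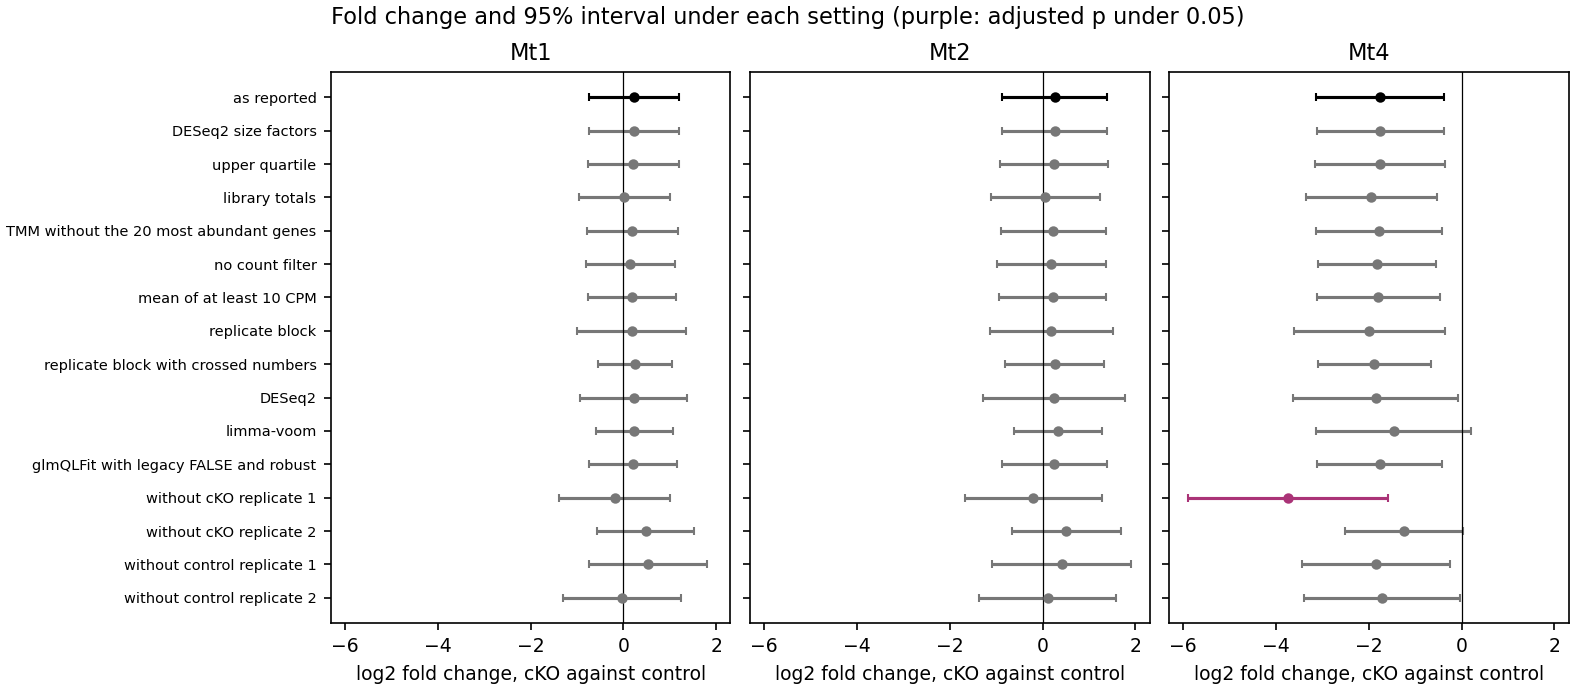
Log2 fold change (cKO against control) with 95% intervals of Mt1, Mt2 and Mt4 under each scaling, filter, test and omitted library, with the reported setting at the top in black and settings at an adjusted p under 0.05 in purple; intervals of DESeq2 are normal intervals from its standard errors. Mt1 and Mt2 stay within intervals that include 0, and Mt4 lies between -3.75 and -1.24, past the threshold only without cKO replicate 1.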

How the data were processed

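Read counts per gene were used as the authors deposited them, as whole numbers without normalisation. The submitters' processing notes name Trim Galore 0.6.7, Trimmomatic 0.39, cutadapt 3.7, STAR 2.7.10a, featureCounts 2.0.1 and GRCm39, with no role or order. A kit that sequences transcripts from the 3' end was used, per the labels' protocols. The use of molecular identifiers and strand and the handling of multiply aligned reads are not given in the sources used here. The exon length of each gene was taken as deposited.

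The filter of filterByExpr (at least 10 counts at the median depth, at least 15 in all) left 4243 genes with 87.6% of all counts. They were scaled with TMM (factors 0.833 to 1.12) and tested with glmQLFit and glmQLFTest in edgeR 4.0.16 (R 4.3.3), with genotype as the only term and Benjamini-Hochberg adjustment over all tested genes at 0.05. Standard errors were derived from each fold change and its F statistic, and intervals use the total degrees of freedom. The fit was tested on simulated data. Alternatives used DESeq2 1.42.0 and limma 3.58.1. Similar transcripts were searched with blastn 2.17.0.

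The members and gene lists were chosen with earlier results of these data known. The text names all members, the targeted genes, Mtf1 and Slc30a1, called list genes with the 3 largest changes per pathway list (mean of at least 10 CPM), the 5 genes most like each tested member and the 3 nearest genes on each side, of which 1 is not reported here. Ivl, Tgm3, Cst6, Krt14, Krt15, Tchh, Krt31, Krt33a, Krt35 and Atox1 were named after their values were seen. Replicates differed by more than counting noise (chi-square per degree of freedom 4.55 in control and 5.10 in cKO). Counts in single libraries limit precision most in cKO replicate 2.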

Additional observations from a re-analysis of the deposited data

How the results depend on the processing

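Under the 11 other scalings, filters, tests and blocks, Mt1 stayed at 0.02 to 0.25, Mt2 at 0.06 to 0.34, their sum at 0.02 to 0.23 and Mt4 at -1.99 to -1.46 on the log2 fold change scale, with none past the threshold (lowest adjusted p 0.0642, for Mt4). Scaling by library totals moved the median of all tested genes to -0.21, where Mt1 was at 0.02, Mt2 at 0.06 and Mt4 at -1.95, or 0.23, 0.27 and -1.74 relative to that median. Mt3 had no count, so no alternative gave it a value. Leaving out 1 library at a time gave -0.19 to 0.53 for Mt1, -0.19 to 0.51 for Mt2, -0.19 to 0.49 for the sum and -3.75 to -1.24 for Mt4, which passed the threshold without cKO replicate 1 (adjusted p 0.0420). An arm with 1 library was assumed to vary like the other. The same omissions gave -0.76 to 1.39 for Slc30a4, -0.80 to 0.12 for Slc39a9, -1.72 to 0.13 for Hspb1, -1.24 to 0.44 for Il6ra, -0.13 to 0.80 for Stat3, 0.47 to 1.18 for Hspe1, 0.35 to 0.74 for Hspa8, -1.43 to -0.63 for Klf9 and -0.99 to -0.65 for Errfi1. Slc39a9 and Errfi1 had no value without control replicate 2, so their ranges do not cover that omission. The numbers of genes called over the whole table, 28 higher and 8 lower, became 34 to 59 higher and 8 to 34 lower with 1 library left out, 49 and 26 with no filter on counts, 40 and 15 for genes averaging 10 CPM or more, and 12 and 3 with limma-voom. With the replicate number as a block, 16 genes were higher and 1 lower, and Mt1 was at 0.18, Mt2 at 0.19, their sum at 0.18 and Mt4 at -1.99 (adjusted p 0.692). Deviations of same-numbered libraries had a correlation of -0.163 across genes, and nothing in the labels says that a number marks a shared litter or day. The crossed pairing, added after seeing the data, gave 90 higher and 57 lower. The cause of these differences was not tested. For Mt4, Mtf1 and Slc30a1, depth limits the comparison most in cKO replicate 2, where they had 1, 0 and 0 counts.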
